A study of Rattus norvegicus with 9 samples.

Results

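The genes of endoplasmic reticulum-associated degradation (ERAD) and of ufmylation were examined in rat pancreatic islets, small clusters of endocrine cells that secrete insulin and other hormones. The set holds 10 genes, Edem1, Sel1l, Syvn1, Derl1, Derl2, Derl3, Vcp, Ufm1, Ufl1 and Ddrgk1, of the 14217 genes that the platform annotation names on the array. A probe set was taken for a gene where the annotation gave that symbol and no other. This found 15 probe sets for 9 of the 10 genes, and Derl3 had none named here. Where a gene had several probe sets, the one with the highest mean over 9 arrays was its main probe set, so its brightness is part of the choice and not a result.

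Islets came from adult male Wistar rats, 7 weeks old at the start and caged singly, after 30 days on a cafeteria diet with 66% of calories as fat (5 arrays) or on standard chow with 8% (4 arrays). Wistar is an outbred laboratory strain, and a cafeteria diet offers palatable, energy-dense food. Each array carried RNA of 1 sample described as independent; whether a sample pools islets of several rats is not stated. p-values therefore measure the spread between these arrays. A further standard sample of the design text was not analysed here. Arrays were grouped by their titles. For 9 of 9 arrays the labels also hold a diet entry that contradicts the title, and with that entry each fold below would change sign. Islets were freed with collagenase and picked by hand, and exocrine and other cells can come along. The islet hormones were bright on all arrays, with Ins1 between 25458 and 41146 on cafeteria arrays and between 22422 and 35391 on standard arrays. In whole islets, a difference in the number of cells of a type and a difference in RNA per cell cannot be told apart.

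Insulin folds in the endoplasmic reticulum (ER), and proteins that fail to fold there are sent back to the cytosol and destroyed by ERAD. Lectins and mannosidases such as Edem1 pick out the misfolded glycoprotein, a membrane complex of Sel1l, the ubiquitin ligase Syvn1 (Hrd1) and the Derlins passes it through the membrane, and the ATPase Vcp (p97) pulls it out for the proteasome. Ufmylation attaches the small ubiquitin-like protein Ufm1 to other proteins at the ER surface, ribosomes among them, through the ligase Ufl1, which the membrane protein Ddrgk1 holds there. Many genes of both systems are targets of the unfolded protein response, in which the factors Xbp1 and Atf6 raise ER folding and clearance capacity.

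Promoters are shown for the 4 genes with the highest log2 folds of the main probe set, Edem1, Derl2, Ufm1 and Ufl1, and for Sel1l, the 1 gene with a negative fold; they were picked after the values were seen. The sequences are from RefSeq, build GRCr8 of the rat genome, and run 5′ to 3′ from 250 bases before an annotated start to 50 after it. Capitals mark CCACG or its complement CGTGG, and CCAAT or its complement ATTGG, the 2 ends of the ER stress response element known from human and mouse stress genes.
Edem1: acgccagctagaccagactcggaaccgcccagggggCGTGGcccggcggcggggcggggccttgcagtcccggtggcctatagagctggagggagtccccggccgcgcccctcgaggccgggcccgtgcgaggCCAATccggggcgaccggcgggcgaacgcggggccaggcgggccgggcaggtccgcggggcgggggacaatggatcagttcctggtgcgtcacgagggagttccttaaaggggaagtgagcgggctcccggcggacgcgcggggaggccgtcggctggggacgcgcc
Derl2: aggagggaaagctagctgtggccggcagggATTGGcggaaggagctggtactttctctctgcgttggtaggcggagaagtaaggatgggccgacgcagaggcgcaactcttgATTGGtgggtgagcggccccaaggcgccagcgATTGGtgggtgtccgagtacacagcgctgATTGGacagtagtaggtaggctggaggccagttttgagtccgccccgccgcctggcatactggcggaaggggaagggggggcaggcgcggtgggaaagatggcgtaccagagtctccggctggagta
Ufm1: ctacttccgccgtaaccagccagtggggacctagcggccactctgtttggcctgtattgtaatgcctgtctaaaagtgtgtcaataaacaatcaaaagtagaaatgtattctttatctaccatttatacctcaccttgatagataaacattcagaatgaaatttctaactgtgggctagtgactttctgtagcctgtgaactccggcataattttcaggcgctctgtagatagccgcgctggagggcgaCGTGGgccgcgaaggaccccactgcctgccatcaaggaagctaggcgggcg
Ufl1: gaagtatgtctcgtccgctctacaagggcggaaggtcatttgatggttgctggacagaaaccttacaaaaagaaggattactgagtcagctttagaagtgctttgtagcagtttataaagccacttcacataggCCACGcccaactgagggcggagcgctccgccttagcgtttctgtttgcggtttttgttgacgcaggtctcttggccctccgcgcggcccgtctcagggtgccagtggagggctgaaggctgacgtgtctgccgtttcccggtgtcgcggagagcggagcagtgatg
Sel1l: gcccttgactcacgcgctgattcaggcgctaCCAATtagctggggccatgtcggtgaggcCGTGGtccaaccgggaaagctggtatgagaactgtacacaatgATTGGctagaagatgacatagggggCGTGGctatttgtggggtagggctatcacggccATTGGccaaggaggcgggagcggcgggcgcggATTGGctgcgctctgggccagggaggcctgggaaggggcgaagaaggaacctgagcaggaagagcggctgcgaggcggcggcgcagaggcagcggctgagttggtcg
The windows lie on the plus strand at chr4:143353425-143353724 for Edem1 and on the minus strand at chr10:56237944-56238243 for Derl2, chr2:140127817-140128116 for Ufm1, chr5:43791633-43791932 for Ufl1 and chr6:116510312-116510611 for Sel1l. The windows of Edem1, Derl2 and Sel1l surround starts within the annotated genes. The Edem1 gene begins at base 143350989 of chromosome 4. On the minus strand, Derl2 begins at base 56238038 of chromosome 10 and Sel1l at base 116510436 of chromosome 6. Of the 10 genes, 9 had a promoter in the table, and Derl1 did not. CCACG, on either strand, was found in 7 of the 9, against 31.6% of all 33469 promoters of that length, and CCAAT in 6 of the 9, against 37.5%. Among the printed windows, Edem1 had 1 CCACG and 1 CCAAT, Derl2 had no CCACG and 4 CCAAT, and Sel1l had 2 and 4. Ufm1 and Ufl1 each had 1 CCACG and no CCAAT, that of Ufm1 starting 1 base before the start site. The whole element, CCAAT and CCACG with 9 bases between them, was found in the unmeasured Derl3 only, and in 0.0657% of all promoters. Its shorter form, in which ATTGG and CCACG stand 1 base apart, was in none of the 9 and in 0.0508% of all. TGACGTGG, the unfolded protein response element, whose last 5 bases are CGTGG, was in that of Vcp, 223 bases before the start, and in 0.595% of all. These letter matches are descriptions of the windows and no evidence of binding.

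Values are linear MAS5 signals, and differences are log2 folds of (signal + 16), cafeteria over standard, from 1 limma model over 18625 probe sets that were bright enough to test. All 15 probe sets of the 9 genes were among them. None of the 18625 probe sets passed an adjusted p of 0.05 (0%), the lowest being 0.228, and the genes described here had adjusted p-values between 0.839 and 0.991 in limma. The genes were listed with earlier results of this diet comparison known, so their differences are given as descriptions. Of the 9 main probe sets, 8 had a positive fold, where 48.1% of all tested probe sets did. The median of the 9 was 0.15, beside -0.0019 over the main probe sets of all named genes. At an unadjusted p under 0.05, 4 of the 9 were higher in cafeteria islets (Edem1, Derl2, Ufm1 and Ufl1) and none lower; over all tested probe sets the shares were 3.01% higher and 2.79% lower. In 22 other settings of the fit the count of positive folds lay between 7 and 9. The count at that unadjusted p lay between 2 and 4, and it was 2 without standard replicate 2, 3 or 4 and without cafeteria replicate 3 or 4. It was also 2 without standard replicates 1 and 3 and cafeteria replicate 3 together. The replicate number as a block gave 2 as well, as did a variance prior that does not follow intensity. Derl2 and Ufm1 were under it in 22 of these settings, Ufl1 in 13 and Edem1 in 9.

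**Figure D1:**
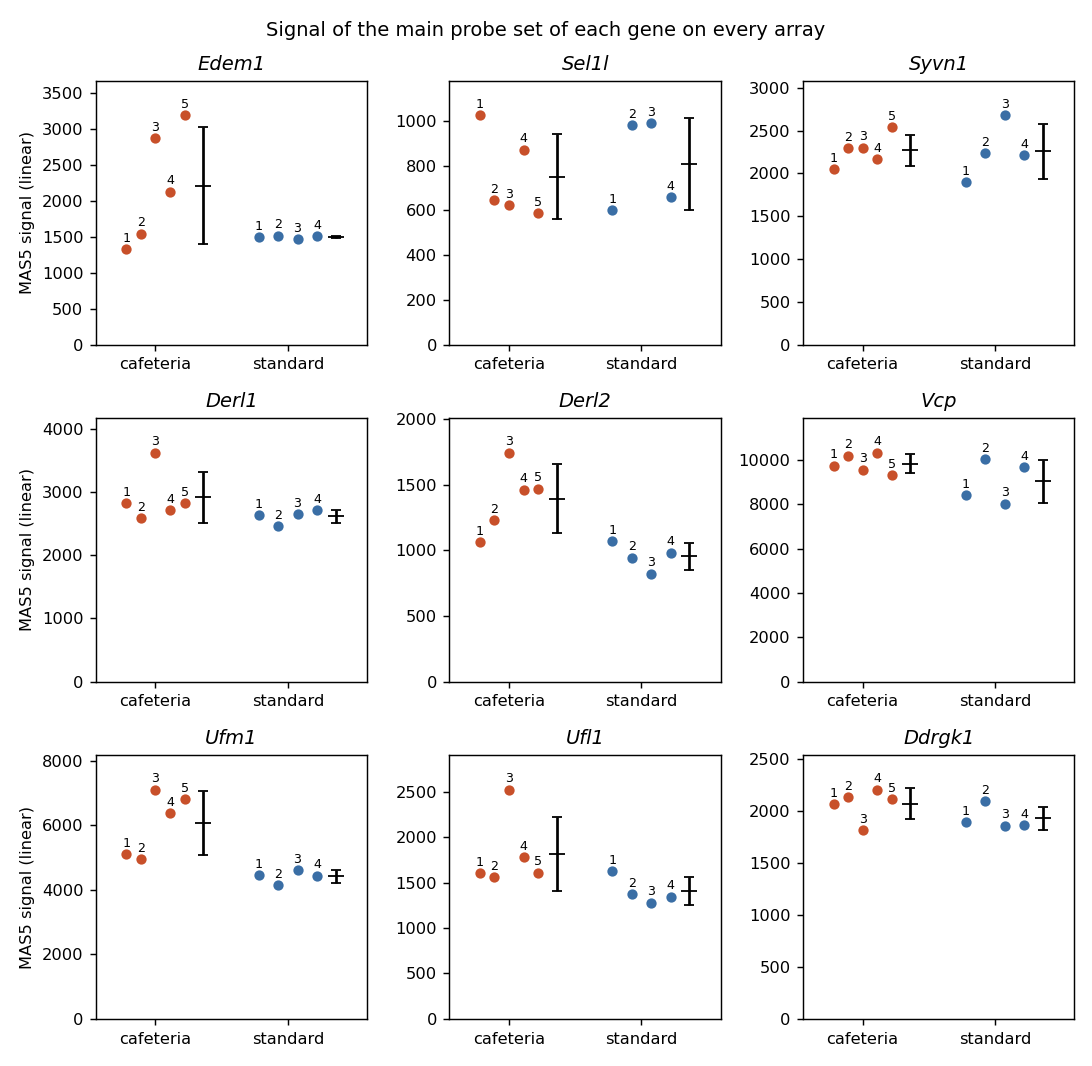
MAS5 signal (linear, each vertical axis starting at 0) of the main probe set of 9 genes on 5 cafeteria arrays and 4 standard arrays. Points are arrays, labelled with their replicate number, and the black bar is the mean with its SD. Ufm1 is the gene whose groups do not overlap; for Edem1 the 5 cafeteria arrays lie between 1331 and 3192 and the 4 standard arrays between 1474 and 1518.

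Edem1 recognises misfolded glycoproteins in the ER lumen and trims their mannose residues. Its signal was 1331, 1546, 2878, 2132 and 3192 on cafeteria arrays 1 to 5, against 1498, 1518, 1474 and 1507 on standard arrays 1 to 4. The cafeteria arrays spread widely, 4 of them above all standard arrays and cafeteria replicate 1 below them all, while the standard arrays were nearly equal. The means were 2216 ± 811 (SD, n = 5) and 1500 ± 19 (SD, n = 4), a log2 fold of 0.48 ± 0.22 (SE), and limma's model assumes the same spread in both groups. Leaving out cafeteria replicate 5 gave a fold of 0.33, and leaving out replicate 1 gave 0.64. A second, dimmer probe set of Edem1 had 396, 482, 574, 676 and 526 on cafeteria arrays 1 to 5, against 295, 323, 382 and 408 on standard arrays 1 to 4. There, only cafeteria replicate 1 fell inside the standard range, and the log2 fold was 0.56 ± 0.17. The dimmest probe set of Edem1 averaged 485 ± 222 in cafeteria islets and 304 ± 77 in standard islets, with overlapping groups and a log2 fold of 0.56 ± 0.29. The probe sets of a gene read the same RNA on the same arrays and are not replicates.

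Sel1l, the scaffold of the retrotranslocation complex, had signals of 1025, 646, 624, 872 and 589 on cafeteria arrays 1 to 5, against 602, 980, 992 and 660 on standard arrays 1 to 4. Both groups held high and low arrays and overlapped over nearly the whole range. The log2 fold was -0.10 ± 0.20, with a 95% interval of the difference from -0.53 to 0.33, and it was 0.0066 without standard replicate 3 and 0.0005 without standard replicate 2. Syvn1, the ubiquitin ligase that Sel1l steadies, had 2050, 2296, 2301, 2165 and 2541 on cafeteria arrays 1 to 5, against 1902, 2242, 2678 and 2211 on standard arrays 1 to 4. All cafeteria values lay inside the standard range. Its log2 fold was 0.01 ± 0.11 (95% interval -0.23 to 0.26), and its sign turned in 5 of 22 other settings. For both core components of the ligase complex, as for the other measured genes, a difference was not detectable at the adjusted threshold with 9 arrays. The intervals of Sel1l and Syvn1 show how large one could be.

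The Derlins are membrane proteins that thin the ER bilayer and bind Vcp. Derl2 had 1061, 1229, 1744, 1462 and 1470 on cafeteria arrays 1 to 5, against 1069, 945, 823 and 983 on standard arrays 1 to 4. Only cafeteria replicate 1 and standard replicate 1 kept the groups from separating, with 4 of 5 cafeteria arrays above all standard ones. The means were 1393 ± 260 (SD, n = 5) and 955 ± 102 (SD, n = 4), a log2 fold of 0.52 ± 0.15, the highest of the 9 main probe sets. The second probe set of Derl2 had 829, 732, 1098, 792 and 799 on cafeteria arrays 1 to 5, against 740, 620, 658 and 678 on standard arrays 1 to 4. Its groups overlapped through cafeteria replicate 2 alone, with a log2 fold of 0.32 ± 0.13.

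Derl1 had 2819, 2585, 3621, 2716 and 2820 on cafeteria arrays 1 to 5, against 2627, 2464, 2645 and 2711 on standard arrays 1 to 4. Cafeteria replicate 3 stood above the other arrays, and without it the log2 fold of 0.15 ± 0.11 was 0.066. The 3 probe sets of Derl1 did not share a direction: one of the others averaged 2084 ± 153 in cafeteria islets and 1927 ± 162 in standard islets, a log2 fold of 0.11 ± 0.10. The last averaged 1692 ± 205 in cafeteria islets and 1861 ± 300 in standard islets, a log2 fold of -0.13 ± 0.13, and the direction of Derl1 is unsettled. Vcp, the ATPase that extracts ERAD substrates and serves many other ubiquitin pathways, had 9756, 10204, 9569, 10343 and 9333 on cafeteria arrays 1 to 5, against 8432, 10059, 8038 and 9680 on standard arrays 1 to 4. The cafeteria arrays lay close together and within or just above the upper part of the standard range. The log2 fold was 0.13 ± 0.09; it was 0.0705 without standard replicate 3, and 0.0049 without standard replicates 1 and 3 and cafeteria replicate 3 together.

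Ufm1, the modifier itself, was the 1 gene of the 9 whose groups did not overlap. Over all tested probe sets, 0.999% did not overlap with cafeteria higher and 0.762% with cafeteria lower. Its signal was 5119, 4953, 7106, 6375 and 6817 on cafeteria arrays 1 to 5, against 4460, 4154, 4608 and 4444 on standard arrays 1 to 4. Cafeteria replicates 1 and 2 lay just above the standard arrays and replicates 3, 4 and 5 well above them. The means were 6074 ± 984 (SD, n = 5) and 4416 ± 190 (SD, n = 4), and the log2 fold was 0.44 ± 0.12, from 0.38 to 0.51 when single arrays were removed.

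Ufl1, the ligase that transfers Ufm1, had 1603, 1559, 2521, 1776 and 1608 on cafeteria arrays 1 to 5, against 1628, 1371, 1280 and 1345 on standard arrays 1 to 4. The groups overlapped, since standard replicate 1 lay above 3 of the cafeteria arrays, and cafeteria replicate 3 stood far above the rest. The log2 fold was 0.34 ± 0.15, and 0.22 without cafeteria replicate 3. The second probe set of Ufl1 had 1389, 1459, 2473, 1761 and 1698 on cafeteria arrays 1 to 5, against 1581, 821, 1109 and 1299 on standard arrays 1 to 4. Its groups overlapped in the same way, through standard replicate 1, and its log2 fold was 0.55 ± 0.20. Ddrgk1, which anchors Ufl1 at the ER membrane, had 2063, 2131, 1813, 2201 and 2113 on cafeteria arrays 1 to 5, against 1890, 2092, 1856 and 1863 on standard arrays 1 to 4. The cafeteria arrays held both the highest and the lowest value, and the log2 fold was 0.10 ± 0.10 (95% interval -0.11 to 0.31).

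**Figure D2:**
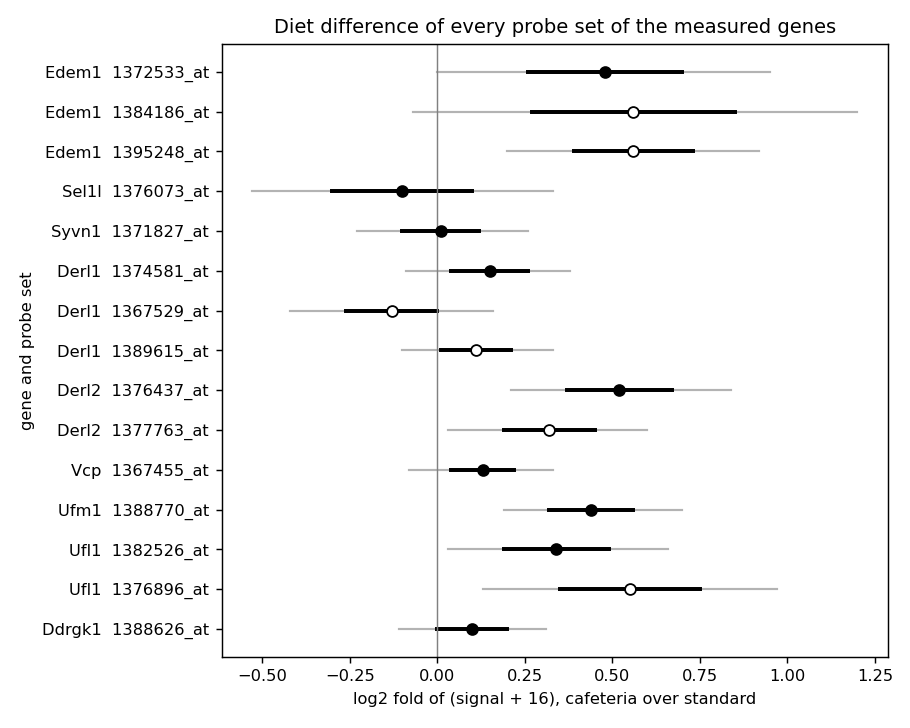
Log2 fold of (signal + 16), cafeteria over standard, for the 15 probe sets of the 9 measured genes. Filled points are main probe sets and open points the others; black bars are the standard error and grey bars the 95% interval of limma's fit. The probe sets of Edem1, Derl2 and Ufl1 lie right of 0, and those of Derl1 fall on both sides.

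Differences among the 9 genes were also read by array. Of the 9 main probe sets, 4, 5, 6, 8 and 7 lay above their 9-array median on cafeteria arrays 1 to 5, against 1, 3, 2 and 0 on standard arrays 1 to 4. The mean log2 deviation of the 9 from their 9-array means was -0.02, -0.04, 0.26, 0.15 and 0.16 on cafeteria arrays 1 to 5, against -0.16, -0.08, -0.12 and -0.14 on standard arrays 1 to 4. Cafeteria replicates 1 and 2 were thus nearer to the standard arrays than the other cafeteria arrays were. The 6 ERAD genes and the 3 ufmylation genes were alike in this, at 0.23 and 0.32 on cafeteria replicate 3 and at -0.03 and 0.00 on cafeteria replicate 1. On cafeteria replicate 2 the ERAD genes, at -0.06, were just below standard replicate 2, at -0.04. The ufmylation genes, at -0.01 on cafeteria replicate 2, were above all standard arrays, which lay between -0.20 and -0.10. On that array the ERAD and ufmylation genes lay closer together than the within-group SD of the mean of the 9 genes, 0.1. Cafeteria replicate 3 gave the highest of the 9 signals for 4 genes, Derl1, Derl2, Ufm1 and Ufl1, and the lowest for Ddrgk1.

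Measures of RNA quality and of other cells were read beside these values. The ratio of the beta-actin 3′ to 5′ control probe sets, which grows as RNA breaks down or labelling falls short, was 2.79, 3.75, 5.63, 3.24 and 4.59 on cafeteria arrays 1 to 5, against 4.84, 3.82, 3.36 and 3.00 on standard arrays 1 to 4. Cafeteria replicate 3 had the highest ratio and also the highest mean deviation of the 9 genes. Standard replicate 1 had the next highest ratio and the lowest mean deviation, -0.16. Cafeteria replicate 5 followed with a ratio of 4.59 and a mean deviation of 0.16. Cafeteria replicate 1 had the lowest ratio, 2.79, and a mean deviation of -0.02. Single genes differed from this mean. Sel1l had its lowest signals, 589, 602 and 624, on cafeteria replicate 5, standard replicate 1 and cafeteria replicate 3. These arrays had the highest ratios. Os9, Atf6b and Mbtps1, described below, were also lowest on these arrays. Edem1 was highest on cafeteria replicates 5 and 3, at 3192 and 2878. With the log2 ratio as a covariate the folds were 0.42 for Edem1, 0.49 for Derl2, 0.42 for Ufm1 and 0.31 for Ufl1.

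Acinar cells make digestive enzymes and are rich in ER. Of 24 acinar markers, 21 were named on the array and 17 tested; 16 had a positive fold, with a median of 0.43. Their summed signal was between 4167 and 13394 on cafeteria arrays and between 5161 and 11659 on standard arrays, and none was at 0. By array the mean log2 deviation of the markers was 0.73, 0.03, 0.66, 0.67 and -1.06 on cafeteria arrays 1 to 5, against 0.27, 0.08, -0.67 and -0.71 on standard arrays 1 to 4. Cafeteria replicate 3, where 4 of the 9 genes peaked, was among the arrays with high values, and cafeteria replicate 5, where Edem1 peaked, had the lowest. With the mean acinar level as a covariate the folds were 0.60 for Edem1, 0.515 for Derl2, 0.47 for Ufm1 and 0.26 for Ufl1. Of 19 macrophage and antigen presentation markers, 14 were tested and 14 had a negative fold, with a median of -0.56. The folds were uneven, from -0.98 for Ptprc and -0.95 for Cd74 to -0.0039 for Cd68. C1qa, C1qb, Tyrobp and Fcer1g lay between -0.20 and -0.10, against -0.59 for C1qc and -0.60 for Lyz2. The summed signal of the 14 was between 5853 and 9699 on cafeteria arrays and between 9554 and 18753 on standard arrays. Of 9 T cell markers, 3 were tested and 3 had a negative fold, with a median of -0.75. They were Cd5 at -0.75 ± 0.39, Lck at -0.50 ± 0.26 and Coro1a at -1.55 ± 0.49. Their sums did not overlap, between 394 and 503 on cafeteria arrays and between 515 and 2138 on standard arrays. Standard replicates 1, 2 and 4, at 608, 672 and 515, were near the cafeteria arrays. Standard replicate 3 had the highest sums of both lists. It had the lowest of the 9 signals for Derl2, Vcp and Ufl1, and the highest for Syvn1, 2678. Without it the folds were 0.47 for Edem1, 0.455 for Derl2, 0.46 for Ufm1 and 0.30 for Ufl1. The part of immune cells in these values was otherwise not tested. Of 11 B and plasma cell markers, of cells that are also rich in ER, 6 were named and none was bright enough to test. The B cell gene Cd79b had signals between 4 and 11 on cafeteria arrays and between 26 and 274 on standard arrays, with no overlap. Ms4a1 had signals between 3 and 68 on cafeteria arrays and between 20 and 390 on standard arrays. Pou2af1 had signals between 1 and 17 on cafeteria arrays and between 16 and 210 on standard arrays, and Jchain between 56 and 75 on cafeteria arrays and between 50 and 217 on standard arrays. Mzb1 and Tnfrsf17 stayed at or below 104 on the 9 arrays.

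**Figure D3:**
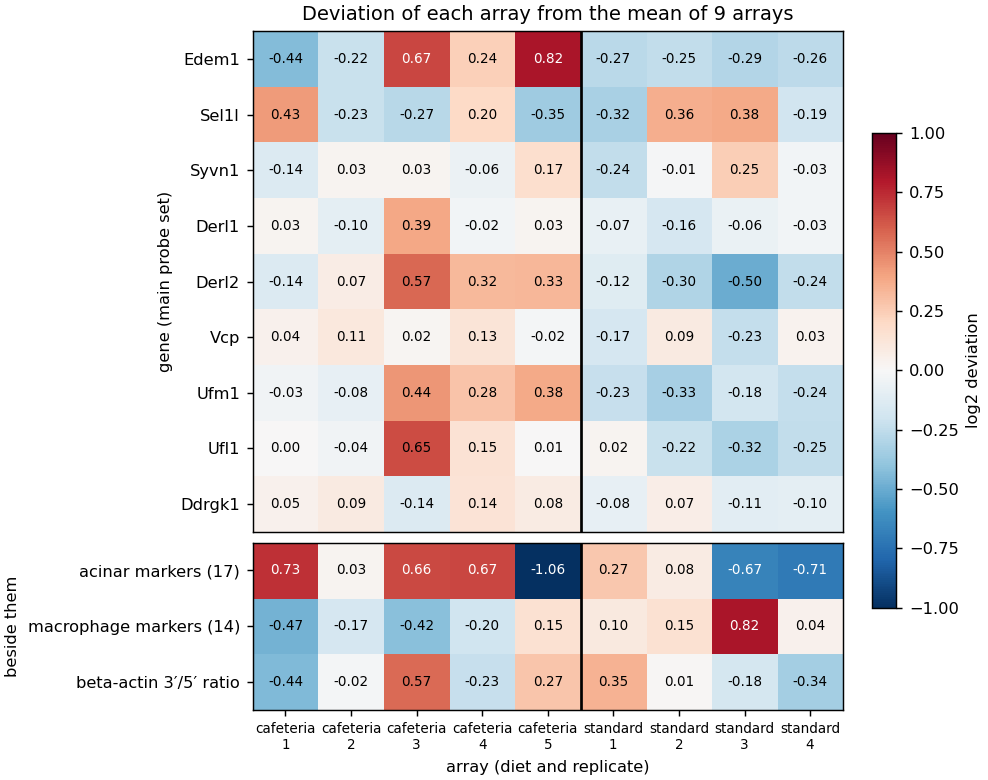
Deviation of each array from the mean of 9 arrays on the log2 scale, for the main probe sets of 9 genes (upper panel) and for the mean of 17 acinar markers, the mean of 14 macrophage markers and the beta-actin 3′/5′ ratio (lower panel). Columns are arrays, cafeteria left of the black line and standard right of it; colours saturate at -1 and 1. Edem1 had its highest signal, 3192, on cafeteria replicate 5, where the acinar markers deviate by -1.06.

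Further genes of the same pathways were read from 4 lists of 56 genes, of which 51 were named on the array and 50 tested. None passed limma's adjusted threshold. Of the 50, 34 had a positive and 16 a negative fold, and at an unadjusted p under 0.05 4 were higher (Erlin1, Svip, Ubxn4 and Ufsp2) and 1 lower (Ubxn6), where 3.01% of all tested probe sets were higher and 2.79% lower. The 4 became 1 without standard replicate 2 or 4 or cafeteria replicate 3, 4 or 5, and 6 without standard replicate 1. There were 0 with the acinar covariate, and also 0 with a variance prior that does not follow intensity. Their median log2 fold was 0.08, and 0.0436 without standard replicates 1 and 3 and cafeteria replicate 3, with 30 of 50 positive.

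Among genes of glycan trimming and recognition, 5 of 6 had a positive fold. The lectin Erlec1 averaged 14695 ± 3625 in cafeteria islets and 11469 ± 1166 in standard islets (SD, n = 5 and 4), a log2 fold of 0.33 ± 0.16. The related lectin Os9 had -0.22 ± 0.20, its groups overlapped, and its other probe set had 0.23. Its main probe set was at -0.37 without standard replicate 1 and at -0.0856 without cafeteria replicate 3. The mannosidases Man1b1 and Edem2 had 0.15 ± 0.11 and 0.10 ± 0.13, and Edem2 was at -0.016 without standard replicate 1.

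Among membrane ligases and their partners, 11 of 18 had a positive fold, with a median of 0.051. Erlin1, part of a complex that steers membrane receptors into ERAD, averaged 1373 ± 169 in cafeteria islets and 1140 ± 92 in standard islets, a log2 fold of 0.26 ± 0.12. Herpud1 and Fam8a1, which help to assemble the Syvn1 complex, had 0.28 ± 0.15 and 0.28 ± 0.17, and the other probe set of Fam8a1 -0.0051. Tmub1, a ubiquitin-like membrane protein of ERAD, had -0.23 ± 0.16. The groups of these 4 genes overlapped.

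Among Vcp cofactors and shuttle factors, 14 of 20 had a positive fold, with a median of 0.0776. Svip, a small inhibitor of ERAD that binds Vcp and the Derlins, averaged 3008 ± 416 in cafeteria islets and 2332 ± 570 in standard islets, a log2 fold of 0.39 ± 0.16. With single arrays left out it ran from 0.27 to 0.51. Ubxn4 (erasin), which tethers Vcp to the ER, had 0.29 ± 0.13, and the Vcp adaptor Ubxn6 had -0.31 ± 0.14. Usp19, an ER-anchored deubiquitinase, had 1357, 1397, 1210, 1323 and 1189 on cafeteria arrays 1 to 5, against 1458, 1458, 1492 and 1452 on standard arrays 1 to 4. Its groups did not overlap, with cafeteria lower and a log2 fold of -0.18 ± 0.10. It was the 1 gene of the 50 listed and tested with such groups, beside 0.762% of all tested probe sets.

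Of the other ufmylation genes, 6 were tested and 4 had a positive fold. Ufsp2, the protease that matures Ufm1 and removes it from its targets, had 4252, 5458, 4844, 5219 and 4255 on cafeteria arrays 1 to 5, against 3858, 4067, 4052 and 4087 on standard arrays 1 to 4. Its groups did not overlap, and the log2 fold was 0.25 ± 0.10. Of the 50 listed genes tested, 1 had groups apart with cafeteria higher, beside 0.999% of all tested probe sets. The conjugating enzyme Ufc1 had 0.11 ± 0.09. Ufsp1, the other Ufm1 protease, had -0.18 ± 0.16, and Trip4, a transcription coactivator that is itself ufmylated, 0.15 ± 0.14; the groups of Ufc1, Ufsp1 and Trip4 overlapped.

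Stress sensors, transcription factors and processing proteases upstream of these genes had folds of both signs at the level of their own RNA, 3 of 7 positive, with a median of -0.0316. Xbp1 averaged 10452 ± 499 in cafeteria islets and 10041 ± 760 in standard islets, a log2 fold of 0.06 ± 0.09, and its probe set does not tell the spliced from the unspliced form as far as the annotation says. Atf6 had 0.16 ± 0.14, Atf6b -0.17 ± 0.22 and the protease Mbtps1, which cuts them, -0.26 ± 0.18. Without cafeteria replicate 3 these were 0.0255, -0.0090 and -0.145, and without standard replicate 1 Mbtps1 was at -0.422 and Atf6b at -0.276. Ern1 had no probe set named here.

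Of 10 ER chaperones, which hold proteins before they fold or are discarded, 8 had a positive fold, where 48.1% of all tested probe sets did. Their median was 0.191. Hyou1 and Calr had negative folds, -0.29 ± 0.42 and -0.03 ± 0.19, and Canx had 0.01 ± 0.08. The Hspa5 (BiP) co-chaperone Dnajb11 averaged 2278 ± 589 in cafeteria islets and 1330 ± 150 in standard islets, a log2 fold of 0.73 ± 0.18 and an adjusted p of 0.839 in limma. Dnajb9, a co-chaperone that passes substrates to ERAD, had 0.27 ± 0.10, Sdf2l1 0.22 ± 0.11 and Dnajc3 0.23 ± 0.13. Without standard replicate 1 Sdf2l1 was at 0.124. Hspa5, the main lumenal chaperone, had 0.22 ± 0.14, and 0.36 without standard replicate 1. On Dnajb11 as on Ufm1, cafeteria replicates 1 and 2 were the lowest of the cafeteria arrays, at 1456 and 2002.

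**Figure D4:**
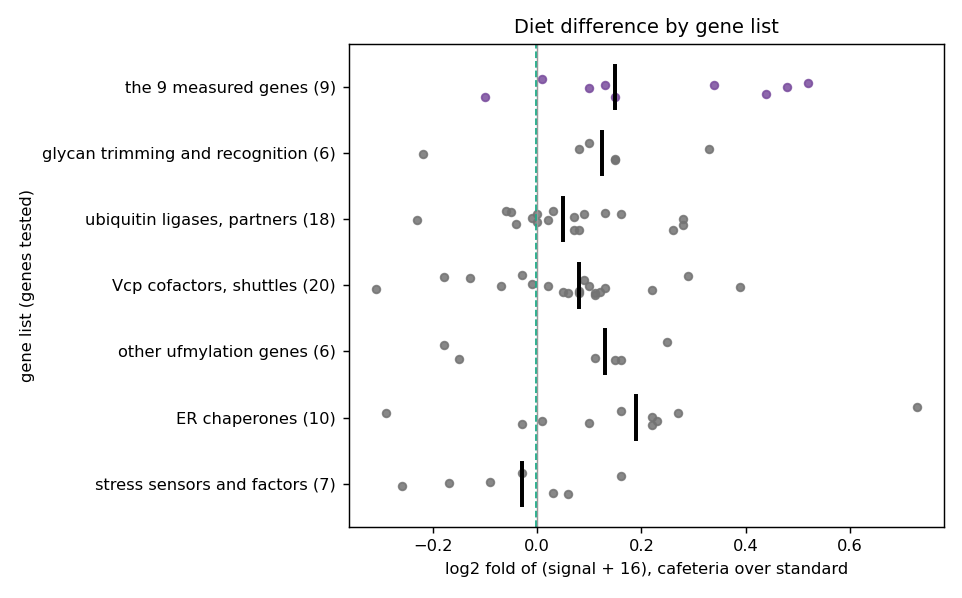
Log2 fold of (signal + 16), cafeteria over standard, of the main probe set of each tested gene, by list. Points are genes, thick black bars list medians, the solid line 0 and the dashed line the median of all named genes (-0.0019). The 9 measured genes have a median of 0.15 and run from -0.10 to 0.52; the stress sensors and factors have a median of -0.0316.

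**Figure D5:**
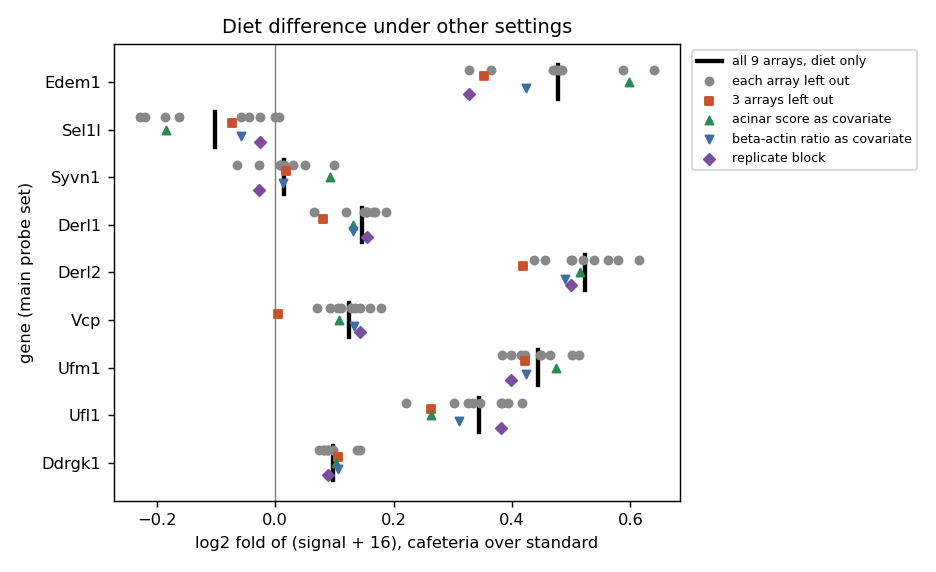
Log2 fold of (signal + 16), cafeteria over standard, of 9 main probe sets with all 9 arrays (black bars) and under other settings (symbols). Edem1, Derl2, Ufm1 and Ufl1 stay right of 0 in each setting drawn, and Sel1l and Syvn1 have settings on both sides of 0.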

How the data were processed

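Islet RNA was hybridised to 1-colour Affymetrix rat genome arrays, 5 for the cafeteria diet and 4 for the standard diet. The authors deposited 1 linear intensity for each of 31099 probe sets, a MAS5 signal per the submitters' processing notes, whose version is not stated there. Every array has a trimmed mean of 500 (2% off each end), and no rescaling was done here. Medians of the arrays ranged from 147 to 166.6, and pairs of arrays correlated at 0.941 to 0.974. Precision is limited by the number of arrays.

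Without 57 controls there were 31042 probe sets; the platform annotation gives 1 symbol for 20826, several for 436 and none for 9780. The model, in limma 3.58.1 under R 4.3.3, was fitted to log2(signal + 16) with a term for diet alone and a variance prior that follows intensity. Probe sets under the 40th percentile of mean log2 signal (about 91.1) were left out, and p-values were adjusted after Benjamini and Hochberg over the other 18625. The fit was tested on simulated data. Promoters were searched in Python 3.11.15.

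Named genes were the members and, from each pathway list, up to 4 genes with the smallest unadjusted p, with Ufc1, Xbp1, Hspa5, Herpud1 and Os9 in any case; 1 further gene of the rule is not reported here. The members, lists and settings were chosen with earlier results of these data known. The deviations of same-numbered arrays from their group means correlated at -0.384, -0.053, -0.121 and 0.03. Arrays with different numbers correlated at -0.209 to 0.307. No shared deviation by replicate number was seen, but so few pairs cannot show whether arrays were handled in pairs. Alternatives were the pseudocount, normalisation, filter, variance model, array weights, left-out arrays, a replicate block and covariates.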

Additional observations from a re-analysis of the deposited data

Results flagged for a closer look

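Each named probe set was searched, within each diet group, for an array whose gap to the nearest other array was large against the group's range (Dixon's criterion at 95%). Of 80 groups, 8 held one, where chance gives about 1 in 20.

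Of these, 5 were cafeteria replicate 3, the array with the highest beta-actin 3′/5′ ratio (5.63) but not the highest GAPDH ratio (1.53). Its signal was 3621 for the main probe set of Derl1, with the other cafeteria arrays between 2585 and 2820. It was 1098 for the second probe set of Derl2 (others 732 to 829) and 2521 for the main probe set of Ufl1 (others 1559 to 1776). It was 2940 for Fam8a1 (others 1663 to 2018) and 4916 for Atf6 (others 2872 to 3303). Without this array the log2 fold of Fam8a1 was 0.147.

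The other 3 were standard arrays. Ddrgk1 had 2092 on standard replicate 2, with the others between 1856 and 1890. Usp19 had 1492 on standard replicate 3 (others 1452 to 1458), and Ufsp2 had 3858 on standard replicate 1 (others 4052 to 4087).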

How the results depend on the processing

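The fit was repeated under 22 alternatives, among them the removal of each array in turn and of 3 arrays at once (cafeteria replicate 3, standard replicates 1 and 3). Of the 34 named genes, 31 kept their direction in all 22, 7 of the 9 members among them, and the lowest adjusted p of any named gene was 0.218. The exceptions were Sel1l (0.000502 and 0.00659 without standard replicates 2 and 3; its range with 1 array left out was -0.229 to 0.00659), Syvn1 and Edem2. Syvn1 was at -0.0023 with quantile normalisation, -0.0539 with array weights and -0.0267 with the replicate number as a block, and between -0.0638 and 0.0995 with 1 array left out. Edem2 lay between -0.016 and 0.211 with 1 array left out and at -0.025 without the 3 arrays. The dimmest probe set of Derl1, the last given above, was at -0.128. The count of probe sets passing the adjusted threshold was 0 in 21 alternatives and 2 without standard replicate 2, neither of them a named gene, so it ran from 0 to 2 with 1 array left out. The count at an unadjusted p under 0.05, 1080, ran from 716 without standard replicate 3 to 1678 without standard replicate 1, and was 1655 without cafeteria replicate 1; it was 660 without the 3 arrays together, 582 with the replicate block, 1717 with no filter and 1821 with array weights. With the replicate block no named gene passed the adjusted threshold either, and Edem1, Derl2, Ufm1 and Ufl1 had folds of 0.328, 0.499, 0.398 and 0.381; at an unadjusted p under 0.05 that fit kept Derl2 and Ufm1, and in limma's blocked fit Edem1 had an unadjusted p of 0.121 and Ufl1 of 0.0581; since cafeteria replicate 5 has no partner, that fit takes no diet difference from it. The causes of these shifts were not tested. Some list genes moved by over 1.5 times with 1 array left out: Ubxn6 was at -0.205 and Tmub1 at -0.136 without cafeteria replicate 3, Herpud1 at 0.427 without standard replicate 1 and 0.178 without standard replicate 2, Dnajc3 at 0.127 without cafeteria replicate 5, and Hspa5 at 0.124 without standard replicate 3.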
